A study of Mus musculus with 24 samples.

Results

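The genes described here encode the proteins of the cytosolic ribosome. They were chosen by symbol: protein-coding mouse genes in GENCODE M21 named Rpl or Rps with a number (with the suffixes of paralogs), together with Rplp0, Rplp1, Rplp2 and Rpsa. The rule gave 83 of the 35968 genes in the deposited tables, 52 for the large subunit and 31 for the small subunit, on 19 chromosomes. Of these, 80 passed the filter on low counts. Rpl10l and Rpl39l had 0 counts in every library, and Rpl3l had between 0 and 5 counts per library. Kinases named Rps6k and pseudogenes were not part of the rule, and each paralog was kept as a gene of its own.

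RNA was taken from C2C12 cells, a line of mouse myoblasts that is kept undifferentiated by growth below confluence, 48 h after siRNA transfection. The 12 libraries formed 4 groups of 3, which received a non-targeting siRNA (siCont), a single siRNA against Keap1 (siKeap1), a single siRNA against Fem1b (siFem1b), and these last siRNAs combined (siFem1b/Keap1). KEAP1 and FEM1B are substrate receptors of ubiquitin ligases. With a single sequence per target, what an siRNA does beyond its target cannot be told apart from loss of the target. The labels name triplicates without saying that they were separate cultures, so p-values measure the spread between these libraries.

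A ribosome carries each of its proteins in a fixed proportion, so cells make these proteins in matched amounts, and a growing cell spends much of its messenger RNA on them. Most of their mRNAs begin with a C followed by a run of pyrimidines, the 5′ terminal oligopyrimidine (TOP) motif, through which mTOR and LARP1 control their translation and stability. MYC raises transcription of these genes and of the factors that assemble ribosomes. A few ribosomal proteins have work outside the ribosome: RPL5 and RPL11 can bind MDM2, which limits p53.

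The sum of both sequencing runs came to between 31.9 and 43.0 M estimated counts per library. Keap1 lay between 8.59 and 11.1 CPM (counts scaled by the TMM-adjusted library total) in the 6 libraries that received its siRNA and between 56.7 and 63.3 CPM in the others. Fem1b lay between 11.6 and 14.2 CPM with its siRNA and between 94.1 and 106 CPM without. Myoblast markers (Myod1, Myf5, Des, Cdh15, Vim and Itga7) were all detected and summed to between 7094 and 9415 CPM per library. Most of this was Vim, with means of 7735 CPM (siCont), 5752 (siKeap1), 6549 (siFem1b) and 5816 (siFem1b/Keap1). With siFem1b against siCont, 5 of these 6 markers were higher and 1 lower (edgeR), beside 30.0% and 32.1% of all genes. The 6 markers of differentiated muscle summed to 11.1 to 13.9 CPM with siCont, 15.1 to 16.3 with siKeap1, 183 to 195 with siFem1b and 147 to 159 with siFem1b/Keap1. Of these sums, Acta1 alone had means of 6.89, 13.5, 64.4 and 133 CPM in that order. Against siFem1b alone, 1 marker was higher and 5 were lower with both siRNAs (edgeR, adjusted p under 0.05, median log2 fold change -2.28). In that comparison 21.3% of all genes were higher and 21.8% lower. With siKeap1, 1 was higher and 3 lower than with siCont (median -0.88), beside 18.4% and 23.8% of all genes. The 6 epithelial markers summed to 42.5 to 47.6 CPM with siCont, 102 to 108 with siKeap1, 82.1 to 90.4 with siFem1b and 146 to 164 with siFem1b/Keap1. In that order, Krt19 had means of 34.7, 40.6, 71.1 and 116 CPM, and Krt14 had 9.70, 62.4, 12.9 and 32.1. The 5 leukocyte markers, 1 of them at 0 in every library, summed to 1.69 to 2.32 CPM with siCont, 4.44 to 5.08 with siKeap1, 2.32 to 2.78 with siFem1b and 5.90 to 6.71 with siFem1b/Keap1, and the 4 endothelial markers to at most 2.14 CPM. Among the leukocyte markers, Cd68 had means of 1.56, 3.59, 2.06 and 5.71 CPM in the same order of groups.

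Ribosomal protein mRNAs took a smaller share of counts with siFem1b than in the other groups, and a share close to the control with siKeap1. The 83 genes took 4.07%, 4.59% and 3.97% of the estimated counts in the 3 siCont libraries and 4.27%, 4.18% and 4.40% with siKeap1. With siFem1b they took 3.76%, 3.36% and 3.59%, below every library of the other groups. With both siRNAs they took 3.95%, 3.84% and 4.11%, inside the range of neither single siRNA: all 3 values lay above siFem1b and below siKeap1, and they overlapped with siCont. The means were 4.21% ± 0.33 (SD, n = 3) for siCont, 4.28% ± 0.11 for siKeap1, 3.57% ± 0.20 for siFem1b and 3.97% ± 0.13 for siFem1b/Keap1. As the RNA came from whole cultures, fewer cells with these mRNAs and less of them per cell cannot be told apart. On the length-corrected scale (TPM), the genes held between 12.7% and 16.04% of a library.

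**Figure D1:**
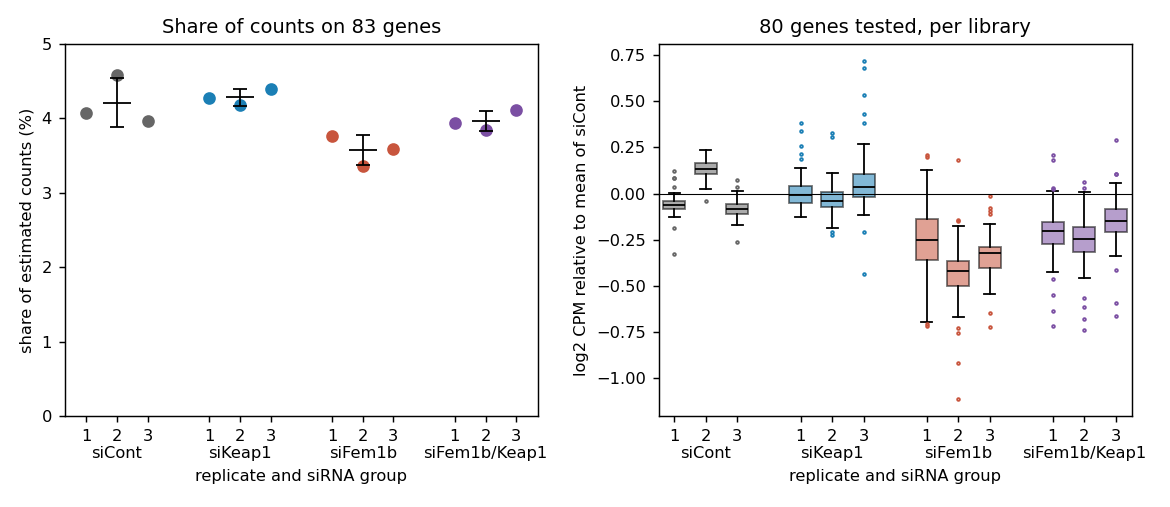
Left, share of estimated counts (%) on the 83 genes in each library, with the mean and SD of each siRNA group as bars; right, log2 CPM of the 80 tested genes in each library relative to the mean of siCont (box, quartiles; line, median; whiskers, 1.5 interquartile ranges). The siFem1b libraries are the lowest on the left, and siCont replicate 2 stands above the other siCont libraries in both panels.

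The second siCont library stood apart from the other controls. In it 77 of the 80 genes had their highest siCont value, and the median gene was 0.13 (log2) above the siCont mean, against -0.06 and -0.09 in the other siCont libraries. Medians relative to the same mean were -0.01, -0.04 and 0.03 in the siKeap1 libraries, -0.25, -0.42 and -0.32 with siFem1b, and -0.20, -0.24 and -0.15 with siFem1b/Keap1. All 6 libraries with the Fem1b siRNA therefore had a lower median than every library without it. Short mRNAs of other genes were measured for comparison. The 1344 other genes whose main coding transcript is under 1000 bases took 6.99%, 7.58% and 6.92% of counts with siCont, 7.92%, 7.80% and 8.20% with siKeap1, 7.22%, 6.70% and 6.88% with siFem1b, and 7.55%, 7.46% and 7.72% with siFem1b/Keap1. Within each of the 4 groups the 3 libraries ranked in the same order by this share as by the share of ribosomal proteins, siCont replicate 2 included. Between groups, siFem1b had the lowest mean of both shares (6.93% for the other short mRNAs, against 7.16% with siCont) and siKeap1 the highest, while siFem1b/Keap1 lay above siCont for these mRNAs (7.58%) and below it for ribosomal proteins. The part of short mRNAs in the results was not tested.

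With siFem1b, 67 of the 80 tested genes were lower than with siCont and none was higher (edgeR, adjusted p under 0.05). Over all 14577 genes tested, 32.1% were lower and 30.0% higher. The median log2 fold change of the 80 genes was -0.33, against -0.01 over all genes, and 79 of the 80 had a negative value. No gene was higher at an unadjusted p under 0.05 either, nor by DESeq2 (66 lower) or limma-voom (67 lower). Their spread was narrow: the interquartile range was 0.11 (log2), against 0.63 over all genes. In 64 of the 80 genes, all 3 siFem1b libraries lay below all 3 siCont libraries, which was so for 32.5% of genes. Both subunits took part, with 43 of 49 large-subunit genes lower (median -0.32) and 24 of 31 small-subunit genes lower (median -0.34). Without siCont replicate 2, 57 genes were lower and the median was -0.26. With library totals in place of TMM factors, 57 genes were lower and the median was -0.23, while that over all genes was 0.09. The muscle markers given above were higher in the same libraries, and their part in the result was not tested.

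**Figure D2:**
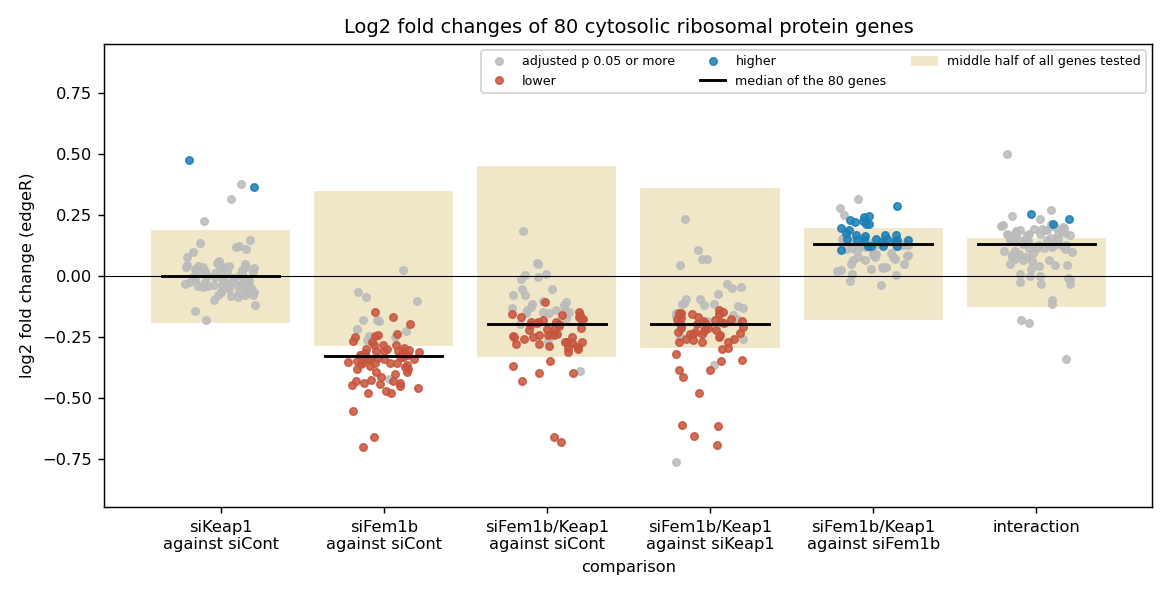
Log2 fold changes of the 80 tested genes (points) in each of 6 comparisons, coloured by the edgeR call, with their median as a line and the interquartile range of all 14577 genes as a shaded band; the interaction is the effect of the Keap1 siRNA given with the Fem1b siRNA minus its effect given alone. The points form a narrow cloud below 0 in the 3 comparisons that add the Fem1b siRNA, centred at -0.33, -0.20 and -0.20.

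Among the structural genes of the stalk, the lateral protrusion of the large subunit that recruits translation factors, all 3 fell with siFem1b. Rplp0, the scaffold of the stalk, had 2078, 2299 and 2114 CPM with siCont, 2076, 2108 and 2018 with siKeap1, 1530, 1599 and 1677 with siFem1b, and 1824, 1816 and 1838 with siFem1b/Keap1. The siFem1b libraries were the lowest and the libraries with both siRNAs lay between them and the rest, with no overlap. The log2 fold change of Rplp0 with siFem1b was -0.43 (SE 0.04, adjusted p = 6.88e-08). Rplp2, an acidic protein that binds to this scaffold, had 332, 416 and 336 CPM with siCont and 261, 246 and 269 with siFem1b, a log2 change of -0.48 (SE 0.07, adjusted p = 4.58e-05). Its partner Rplp1 had a log2 change of -0.36 (SE 0.07, adjusted p = 0.000497).

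Rps6, Rps27a and Rpl11 were lower with siFem1b. Rps6, the small-subunit protein phosphorylated by S6 kinases downstream of mTOR, had 1066, 1186 and 1038 CPM with siCont, 1108, 1073 and 1186 with siKeap1, 861, 743 and 797 with siFem1b, and 865, 860 and 923 with siFem1b/Keap1. All 6 libraries with the Fem1b siRNA lay below the 6 without it, and the log2 fold change was -0.45 with siFem1b (SE 0.06, adjusted p = 3.22e-06) and -0.31 with both siRNAs (SE 0.06, adjusted p = 0.000144). Rps27a, translated as a fusion with ubiquitin that is then cut, had 586, 701 and 611 CPM with siCont, 464, 447 and 458 with siFem1b, and 545, 511 and 539 with siFem1b/Keap1. It fell by 0.47 on the log2 scale with siFem1b (SE 0.05, adjusted p = 2.27e-07). Rpl11, which with Rpl5 joins 5S rRNA in the particle that can bind MDM2, had 496, 568 and 487 CPM with siCont and 439, 392 and 414 with siFem1b, a log2 change of -0.32 (SE 0.06, adjusted p = 9.16e-05).

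The fall with siFem1b was largest for Rpl12, Rpl7l1, Rps2 and Rplp2. Rpl7l1, a relative of Rpl7 found on precursors of the large subunit, had 151, 159 and 157 CPM with siCont, 152, 150 and 150 with siKeap1, 94.5, 101 and 99.0 with siFem1b, and 99.8, 96.8 and 97.8 with siFem1b/Keap1. The 6 libraries with the Fem1b siRNA were nearly level and lay far below the 6 others. Its log2 fold change was -0.66 with siFem1b (SE 0.04, adjusted p = 1.82e-11) and also -0.66 with both siRNAs (SE 0.04, adjusted p = 1.1e-11). Rpl12, at the base of the stalk, had 70.3, 73.9 and 61.4 CPM with siCont and 48.3, 36.2 and 41.5 with siFem1b, a log2 change of -0.70 (SE 0.11, adjusted p = 0.000114). Rps2, a core protein of the small subunit, had 15.96, 15.03 and 13.03 CPM with siCont and 10.9, 8.87 and 10.1 with siFem1b, a log2 change of -0.55 (SE 0.10, adjusted p = 0.000109). The last 2 genes carry only a small part of the reads that fit their coding sequence, as described below.

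In 13 of the 80 genes the change with siFem1b did not pass the threshold. The smallest fitted values were 0.02 for Rps27 (SE 0.11), -0.07 for Rps27l (SE 0.10), -0.09 for Rpl36al (SE 0.06) and -0.11 for Rps28 (SE 0.09). Rps12, with a log2 change of -0.43 (SE 0.31), had libraries that scattered, with 158, 165 and 125 CPM with siCont and 159, 68.9 and 105 with siFem1b. Rps21, among the highest of all on the TPM scale, had 490, 553 and 441 CPM with siCont and 568, 319 and 419 with siFem1b, which overlap, and its log2 fold change was -0.18 (SE 0.21). Among the others of the 13, log2 fold changes were -0.27 for Rpl22l1, -0.25 for Rpl27a, -0.25 for Rps26 and -0.18 for Rps29.

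With siKeap1, 2 of the 80 genes were higher than with siCont and none was lower, where 18.4% of all genes were higher and 23.8% lower (edgeR). At an unadjusted p under 0.05, 3 were higher and 1 lower, and DESeq2 and limma-voom each called the same numbers as edgeR, 2 and 0. The median was -0.003 (log2), with 38 positive and 42 negative values. The 2 genes were Rpl5 and Rps27l. Rps27l, a paralog of Rps27 whose gene is a known target of p53, had 117, 128 and 107 CPM with siCont, 148, 145 and 158 with siKeap1, 128, 96.2 and 111 with siFem1b, and 132, 122 and 143 with siFem1b/Keap1. The 3 siKeap1 libraries were above all 9 others, and the log2 fold change was 0.36 (SE 0.10, adjusted p = 0.0124). Rpl5 had 74.7, 72.3 and 76.4 CPM with siCont and 97.0, 93.6 and 119 with siKeap1, a log2 change of 0.47 (SE 0.16, adjusted p = 0.0387). This call was not kept when reads on its near-identical gene were added: the log2 fold change was then -0.01 (adjusted p = 0.828). It was also lost without any 1 of the 3 siCont libraries, siKeap1 replicate 1 or 3, or siFem1b/Keap1 replicate 2 (adjusted p from 0.0569 to 0.125), and that of Rps27l without siCont replicate 3 (adjusted p = 0.0534). Without siCont replicate 2, 7 genes were higher; without siCont replicate 1 or siKeap1 replicate 3, 1 gene was lower.

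With both siRNAs, 50 of the 80 genes were lower than with siCont and none was higher, where 33.7% of all genes were lower and 33.8% higher (edgeR). The median was -0.20 (log2), against 0.01 over all genes. At an unadjusted p under 0.05 none was higher, DESeq2 called 1 higher and 52 lower, and limma-voom called 0 and 49. The largest falls after Rpl12 (-0.68) and Rpl7l1 (-0.66) were those of Rps2 (-0.43) and Rpl8 (-0.40). With near-identical genes added (described below), the values were -0.49 for Rpl12 and -0.53 for Rps2. Rpl8, a large-subunit protein near the peptidyl transferase centre, had 1490, 1714 and 1494 CPM with siCont, 1205, 1093 and 1152 with siFem1b, and 1179, 1146 and 1238 with siFem1b/Keap1. Its siFem1b and siFem1b/Keap1 values overlapped, and all lay below the controls. This count depended on scaling: with library totals in place of TMM factors, 20 genes were lower and 3 higher, while the median over all genes itself moved to 0.13 and the members' median stayed 0.20 below it. With a filter of at least 5 CPM in 3 libraries, 36 genes were lower and the median was -0.13. Without siCont replicate 2, 38 genes were lower, and without siFem1b replicate 1, 1 was higher.

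Against siKeap1 alone, where the siCont libraries enter only the filter, the scaling and the estimate of spread, the cells with both siRNAs had 51 of the 80 genes lower and none higher, where 31.6% of all genes were lower and 32.0% higher (edgeR). None was higher at an unadjusted p under 0.05, by DESeq2 (54 lower) or by limma-voom (51 lower). The median was -0.20 (log2), and in 65 genes all 3 libraries lay below all 3 siKeap1 libraries, which was so for 34.5% of genes. Rpl12 (-0.70, SE 0.11), Rps2 (-0.66, SE 0.10), Rpl7l1 (-0.62, SE 0.04) and Rpl5 (-0.61, SE 0.16) had the largest falls that passed the threshold. With near-identical genes added (described below), the values were -0.31 for Rpl12, -0.45 for Rps2 and -0.19 for Rpl5. With library totals alone, 23 genes were lower and 2 higher, again with the median 0.20 below that of all genes.

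Adding the Keap1 siRNA to the Fem1b siRNA was accompanied by slightly higher levels. Against siFem1b alone, 29 of the 80 genes were higher and none was lower, where 21.3% of all genes were higher and 21.8% lower (edgeR). The median was 0.13 (log2), against 0.01 over all genes, and 78 of the 80 values were positive. None was lower at an unadjusted p under 0.05, by DESeq2 (27 higher) or by limma-voom (29 higher). Rps19, a small-subunit protein mutated in Diamond-Blackfan anaemia, had 328, 325 and 340 CPM with siFem1b, 411, 385 and 415 with both siRNAs, and 392, 471 and 395 with siCont. Its libraries with both siRNAs lay above all siFem1b libraries and overlapped with siCont, with a log2 fold change against siFem1b of 0.29 (SE 0.06, adjusted p = 0.000735). Rplp1 (0.24), Rpl39 (0.24), Rpl37a (0.23), Rps14 (0.22) and Rps27a (0.22) came next among genes past the threshold, whereas Rpl7l1 (0.002, SE 0.04), Rpl10 (0.01, SE 0.05) and Rpl12 (0.02, SE 0.11) had values near 0. With near-identical genes added, Rpl10 had 0.11 (adjusted p = 0.0606) and Rpl12 -0.04. The count fell to 10 without siFem1b/Keap1 replicate 3, to 12 without replicate 1 of that group, and to 16 and 14 without siFem1b replicate 2 and 3. The median was 0.08 without siFem1b replicate 2.

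The interaction asks whether the Keap1 siRNA had the same effect with and without the Fem1b siRNA. In 3 of the 80 genes the effect was more positive with it, and in none more negative, where 6.11% and 5.32% of all genes passed in these directions (edgeR). The share was smaller than over all genes, while 68 of the 80 values were positive, with a median of 0.13 against 0.02 over all genes. At an unadjusted p under 0.05, 19 were more positive and none more negative, and DESeq2 and limma-voom each called 3 and 0. The 3 genes were Rplp0 (0.25, SE 0.06, adjusted p = 0.0102), Rpl10a (0.23, SE 0.06, adjusted p = 0.0241) and Rpl24 (0.21, SE 0.06, adjusted p = 0.0344). Rpl24, a large-subunit protein that joins late in assembly, had 385, 446 and 401 CPM with siCont, 411, 393 and 395 with siKeap1, 360, 371 and 366 with siFem1b, and 418, 409 and 409 with both. Its siFem1b libraries were the lowest and the other 3 groups overlapped. Rpl10a, a protein of the L1 stalk, had 566, 635 and 557 CPM with siCont, 558, 549 and 556 with siKeap1, 470, 453 and 478 with siFem1b, and 516, 503 and 535 with both. No member passed without siFem1b/Keap1 replicate 1, and 1 passed without replicate 3 of that group, siKeap1 replicate 2, or siFem1b replicate 2 or 3. By contrast, 14 passed without siCont replicate 1, and 5 without siCont replicate 3 or siFem1b replicate 1. The median was 0.06 without siCont replicate 2, 0.04 without siFem1b replicate 2, 0.07 without siFem1b/Keap1 replicate 3 and 0.09 with the second run alone.

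The paralog pairs are given side by side, and whether the members of a pair differed in response was not tested. Rps27 and Rps27l encode zinc-finger proteins of the small subunit that are 96.4% identical over 84 residues, while their coding sequences differ at 60 of 252 bases (76.2% identical). The coding sequences, without the stop codon, are shown because every base that separates the pair is a base by which reads could be assigned. They are read from the GENCODE M21 transcripts in the 5′ to 3′ direction of the mRNA (GRCm38; Rps27 on the minus strand at chr3:90212522-90213651, Rps27l on the plus strand at chr9:66946086-66949516), with the differing bases in capitals.
Rps27: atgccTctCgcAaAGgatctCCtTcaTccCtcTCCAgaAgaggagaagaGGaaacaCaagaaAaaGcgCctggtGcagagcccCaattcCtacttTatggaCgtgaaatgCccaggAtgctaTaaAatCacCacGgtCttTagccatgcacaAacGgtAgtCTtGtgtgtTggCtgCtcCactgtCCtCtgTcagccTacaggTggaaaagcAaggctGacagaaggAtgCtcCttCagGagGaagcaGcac
Rps27l: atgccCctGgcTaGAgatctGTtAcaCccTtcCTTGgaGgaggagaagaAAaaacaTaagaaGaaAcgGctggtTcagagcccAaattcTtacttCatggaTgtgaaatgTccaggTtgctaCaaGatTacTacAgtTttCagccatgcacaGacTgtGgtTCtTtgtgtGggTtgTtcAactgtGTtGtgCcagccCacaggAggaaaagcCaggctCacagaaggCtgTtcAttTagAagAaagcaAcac
The values of Rps27 overlapped between all 4 groups: it had 276, 331 and 263 CPM with siCont, 269, 251 and 300 with siKeap1, 335, 262 and 287 with siFem1b, and 288, 272 and 301 with both siRNAs. No comparison of Rps27 passed the threshold, and its adjusted p-values ranged from 0.596 to 0.915. On the TPM scale Rps27 was the more abundant of the pair, with a mean of 3822 over all libraries against 787 for Rps27l.

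Rpl36a and Rpl36al encode the same 106 residues, 100% identical, from coding sequences that are 87.7% identical. Rpl36a had 229, 265 and 227 CPM with siCont and 227, 175 and 197 with siFem1b, a log2 change of -0.27 (SE 0.09, adjusted p = 0.0272) with values that touch at their edges. Rpl36al had 131, 148 and 125 CPM with siCont and 136, 119 and 125 with siFem1b, which overlap, and a log2 change of -0.09 (SE 0.06, adjusted p = 0.261). The call of Rpl36a was lost with the first run alone, with library totals alone and with the compared groups only. It was also lost without siCont replicate 2, siFem1b replicate 2 or 3, or siFem1b/Keap1 replicate 3 (adjusted p from 0.0517 to 0.114).

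Rpl22 and Rpl22l1, RNA-binding proteins of the large subunit, are 70.3% identical in protein. Rpl22 had 216, 239 and 220 CPM with siCont, 220, 221 and 215 with siKeap1, 178, 181 and 169 with siFem1b, and 208, 201 and 183 with both siRNAs. It fell by 0.35 on the log2 scale with siFem1b (SE 0.05, adjusted p = 2.86e-06), and the libraries with both siRNAs lay between. Rpl22l1 had 51.2, 74.0 and 67.6 CPM with siCont, 61.0, 61.1 and 47.5 with siKeap1, 39.4, 72.8 and 48.3 with siFem1b, and 74.3, 64.7 and 59.9 with both. These groups overlapped, and the log2 fold change with siFem1b was -0.27 (SE 0.24, adjusted p = 0.366).

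Rpl7 and Rpl7l1 are the most distant pair, 40.7% identical in protein, and both fell with siFem1b. Rpl7 had 935, 1045 and 965 CPM with siCont, 942, 949 and 923 with siKeap1, 741, 771 and 745 with siFem1b, and 815, 801 and 809 with both siRNAs. Its log2 fold change was -0.38 with siFem1b (SE 0.04, adjusted p = 1.22e-07) and -0.28 with both. Of the pairs with an unexpressed member, Rpl10 (-0.40, SE 0.05), Rpl3 (-0.43, SE 0.13) and Rpl39 (-0.25, SE 0.06) fell with siFem1b, and their partners Rpl10l, Rpl3l and Rpl39l could not be tested. Rpl10 had -0.24 with near-identical genes added.

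**Figure D3:**
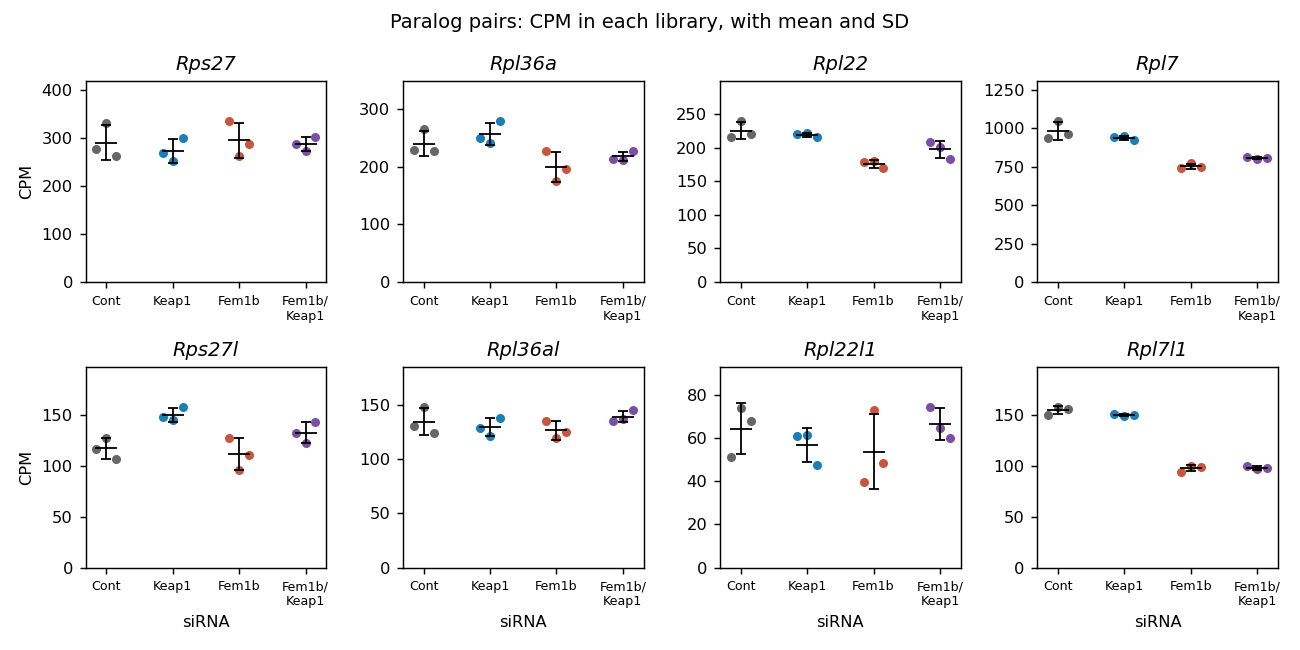
CPM of 4 paralog pairs (columns) in each library (points) of the 4 siRNA groups, with the mean and SD of each group; each vertical axis starts at 0 and has its own scale. Rpl22, Rpl7 and Rpl7l1 are lowest where the Fem1b siRNA was used, Rps27l is highest with siKeap1, and the groups of Rps27 overlap.

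Levels of these genes spanned a wide range on the TPM scale, which corrects for length. The highest means over all libraries were those of Rpl41, which encodes the shortest ribosomal protein (7132 TPM), Rps21 (5069 TPM) and Rps15 (4471 TPM). Among tested genes the lowest were Rps2 (29.8 TPM), Rpl5 (79.1 TPM) and Rpl7l1 (90.9 TPM). Rpl41 had 1322, 1542 and 1248 CPM with siCont and 1241, 984 and 1152 with siFem1b, just below the controls, and its log2 fold change was -0.28 (SE 0.09, adjusted p = 0.0185). Rps15 had 778, 911 and 746 CPM with siCont and 693, 561 and 624 with siFem1b (log2 fold change -0.37, SE 0.09, adjusted p = 0.0023).

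Low levels of several members went with reads that were assigned to near-identical genes. Ribosomal protein genes have many copies in the mouse genome that arose from their mRNAs, some annotated as pseudogenes and some as coding genes. A search of GENCODE M21 found 575 genes that matched the coding sequence of a member at 95% or more over at least 80% of its length, for 77 of the 83 members. In 18 members more than 10% of the combined counts were on such genes, and in 9 more than 50%. The shares were 99.5% for Rps2, 93.0% for Rpl12, 91.5% for Rpl5, 85.6% for Rps12, 82.4% for Rpl10, 76.2% for Rps18, 69.7% for Rpl3, 63.0% for Rpl21 and 54.5% for Rpl26. For Rpl12, Rpl5, Rps12 and Rpl10 the most counted such gene (Gm10275, Gm15500, Rps12-ps3 and Rpl10-ps3) matched the coding sequence at 100%. The estimate of the authors' tool then has to divide reads between sequences that agree, and the values of these members are uncertain.

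Rps18 and Gm10260 show how little separates such genes: over 456 aligned coding bases they differ at 4. Bases 282 to 371, counted from the start codon, hold 2 of these differences, in capitals. Within the coding sequence, only a read that covers such a base can be assigned by sequence alone. Sequence outside it was not compared. The genes lie on the minus strand at chr17:33951999-33956001 (Rps18, with introns) and chr13:97760072-97760632 (Gm10260) of GRCm38.
Rps18: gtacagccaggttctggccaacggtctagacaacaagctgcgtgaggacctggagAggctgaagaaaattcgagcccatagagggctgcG
Gm10260: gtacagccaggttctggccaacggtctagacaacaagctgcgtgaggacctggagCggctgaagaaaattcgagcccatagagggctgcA
When counts on near-identical genes were added to each member, 70 of the 80 genes were lower with siFem1b, among them all 67 that were lower alone, and the median was -0.33. In the fit without this addition, 32.1% of all genes were lower with siFem1b. Of the 18 members with many such reads, 15 were lower alone and 18 after the addition, and their log2 fold changes drew together, from a range of 0.50 to 0.27. Rps12 then passed the threshold (-0.51, adjusted p = 5.95e-05), and Rpl12 fell by 0.45 in place of 0.70 on the log2 scale. Of the 62 other members, 52 were lower, with a median of -0.33, close to that of the 18 (-0.36). With siKeap1 the addition left Rps27l as the single gene called. Rpl7l1 had 0.0018% of its combined counts on a near-identical gene.

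**Figure D4:**
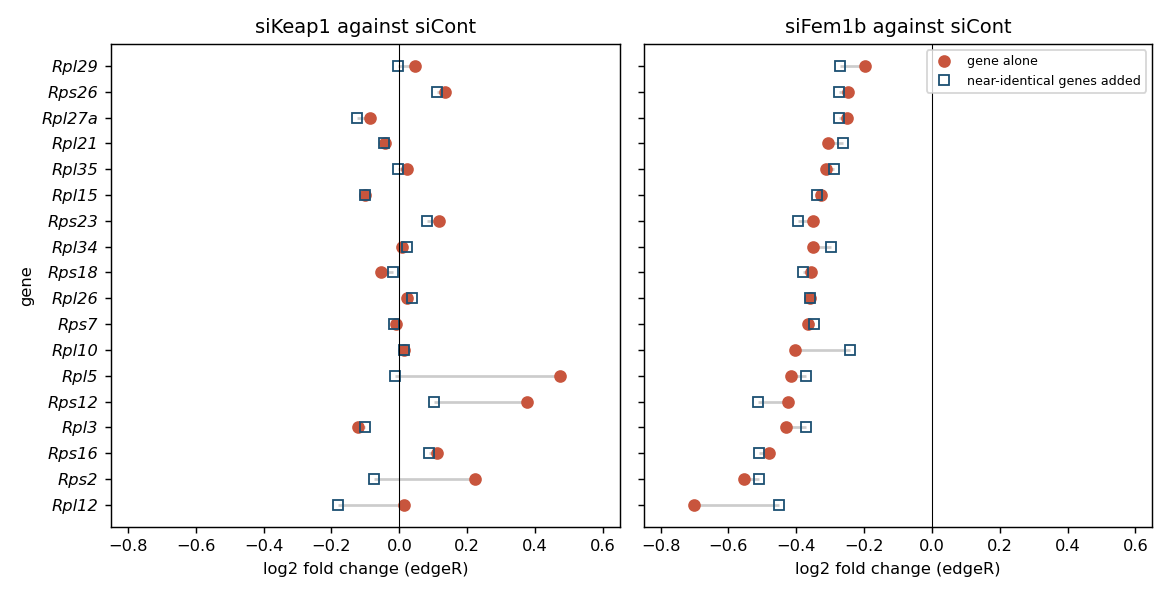
Log2 fold changes of the 18 members with more than 10% of combined counts on near-identical genes, from the member alone (filled circles) and with those genes added (open squares), for siKeap1 (left) and siFem1b (right) against siCont. On the right all open squares lie between -0.51 and -0.24, and on the left Rpl5 moves from 0.47 to -0.01.

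The starts of the genes were read from RefSeq windows (GRCm38.p6), which were matched by symbol for 63 members. A C at the annotated start followed by at least 4 pyrimidines (C or T) on the gene's own strand, the form of a TOP motif, was found in 13 of the 63 (20.6%), against 813 of all 27025 symbols with a window (3.01%). Annotated starts can miss the true start by several bases, so the other members are not shown to lack the motif. For 4 of the 13 genes, chosen after their values were seen as Rps6 and Rplp2, which fell, and Rps27 and Rps21, which did not pass, 20 bases before and 20 bases from the start on are shown, with the run from the first base in capitals.
Rps6: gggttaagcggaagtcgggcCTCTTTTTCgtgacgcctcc
Rplp2: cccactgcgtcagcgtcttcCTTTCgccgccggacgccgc
Rps27: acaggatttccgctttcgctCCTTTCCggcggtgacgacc
Rps21: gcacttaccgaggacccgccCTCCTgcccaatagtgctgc
The windows are at chr4:86857348-86857387 (Rps6, minus strand), chr7:141447631-141447670 (Rplp2, plus strand), chr3:90213629-90213668 (Rps27, minus strand) and chr2:180257359-180257398 (Rps21, plus strand), and each spans the promoter's end and the first bases of the first exon. With siFem1b, 9 of the 13 genes with such a start were lower (median -0.33, from -0.48 to 0.02), and so were 40 of the 47 other tested genes with a window (median -0.34). With both siRNAs against siCont, 9 of 13 and 30 of 47 were lower. Over all genes tested, 32.1% were lower with siFem1b and 33.7% with both siRNAs.

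Sites for the siRNA guides were searched in the 3′ UTR of the main coding transcript only. These mRNAs are short: the main coding transcript had a median of 680 bases and a 3′ UTR of 64.5 bases, against 2777 and 873 bases over all 13871 tested genes with such a transcript. The site that pairs with bases 2 to 8 of the Fem1b guide, CAGAATT, was in the 3′ UTR of 2 of the 80 members, Rpl21 and Rpl4 (2.5%), and of 11.98% of genes. The site for the Keap1 guide, GACACGG, was in none of the 80 and in 2.40% of genes. Both were searched on the mRNA strand only, and coding sequences and 5′ UTRs were not searched. The part of such sites in the results was not tested. Rpl4 had 1384, 1475 and 1395 CPM with siCont and 1212, 1160 and 1216 with siFem1b (log2 fold change -0.25), and Rpl21 had a value of -0.31.

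Of the genes that the symbol rule leaves out, Rack1, Fau and Rps3a1 are given here. Rack1, a scaffold on the small subunit, had 1199, 1355 and 1235 CPM with siCont, 1248, 1250 and 1288 with siKeap1, 972, 989 and 1013 with siFem1b, and 1139, 1121 and 1166 with both siRNAs. The groups with the Fem1b siRNA lay below the others and apart from each other, and the log2 fold change was -0.35 with siFem1b (SE 0.04, adjusted p = 8.83e-07). Fau, whose product is cut to give the small-subunit protein RPS30, had a value of -0.38 (SE 0.10, adjusted p = 0.00822). Rps3a1 had a value of -0.15 (SE 0.17), which did not pass the threshold.

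The genes that translate with ribosomes or build them were lower with siFem1b as well, beside 32.1% of all genes lower and 30.0% higher. The lists below were drawn up with earlier results of these data known and are described by their counts only. Of 49 translation factors, 40 were lower and 1 higher with siFem1b, with a median of -0.30. They were led by Pabpc4 (-0.68, SE 0.04) and Pabpc1 (-0.60, SE 0.04), which bind poly(A) tails, Eif3b (-0.56, SE 0.03), part of the factor that loads the small subunit, and the helicase Eif4a1 (-0.53, SE 0.04). Of 82 assembly factors, 76 were lower and none higher, with a median of -0.59, further from 0 than that of the ribosomal proteins. Tsr1, which acts on the maturing small subunit, had 183, 188 and 193 CPM with siCont and 71.2, 74.2 and 75.2 with siFem1b, a log2 change of -1.36 (SE 0.04). The nucleolar proteins Dkc1 (-1.002, SE 0.04) and Npm1 (-0.92, SE 0.03) followed.

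Of 20 genes of the RNA polymerase I machinery, which makes the large ribosomal RNAs, 17 were lower and none higher with siFem1b (median -0.48), among them Polr1b (-0.87, SE 0.04). Over all genes, 32.1% were lower and 30.0% higher in this comparison. Of 10 dedicated chaperones of ribosomal proteins, 9 were lower and none higher (median -0.58), among them Grwd1 (-0.83, SE 0.05). Myc had 88.4, 87.9 and 85.8 CPM with siCont, 102, 97.6 and 99.9 with siKeap1, 46.7, 41.2 and 42.9 with siFem1b, and 44.6, 42.02 and 44.4 with both siRNAs. Its log2 fold change was -1.001 with siFem1b (SE 0.05, adjusted p = 1.45e-12), and it stayed low with both. Mxd4, which competes with MYC for its partner MAX, had 22.6, 22.7 and 22.2 CPM with siCont and 88.7, 103 and 99.0 with siFem1b, and Mtor fell by 0.45 on the log2 scale (SE 0.04). Of the 17 tested genes on the list of MYC, mTOR and TOP control, 9 were lower and 6 higher with siFem1b.

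With siKeap1, where 18.4% of all genes were higher and 23.8% lower, 4 of the 49 translation factors were higher and 10 lower (median -0.05). The share of translation factors that were higher was below that over all genes. Of the 82 assembly factors, 19 were higher and 16 lower (median -0.01), shares not far from those over all genes. Against siFem1b alone, where 21.3% of all genes were higher and 21.8% lower, the cells with both siRNAs had 8 translation factors higher and 8 lower (median 0.03) and 15 assembly factors higher and 15 lower (median 0.02). The ribosomal proteins in the same comparison were 29 higher and none lower. The difference between the lists was not tested.

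**Figure D5:**
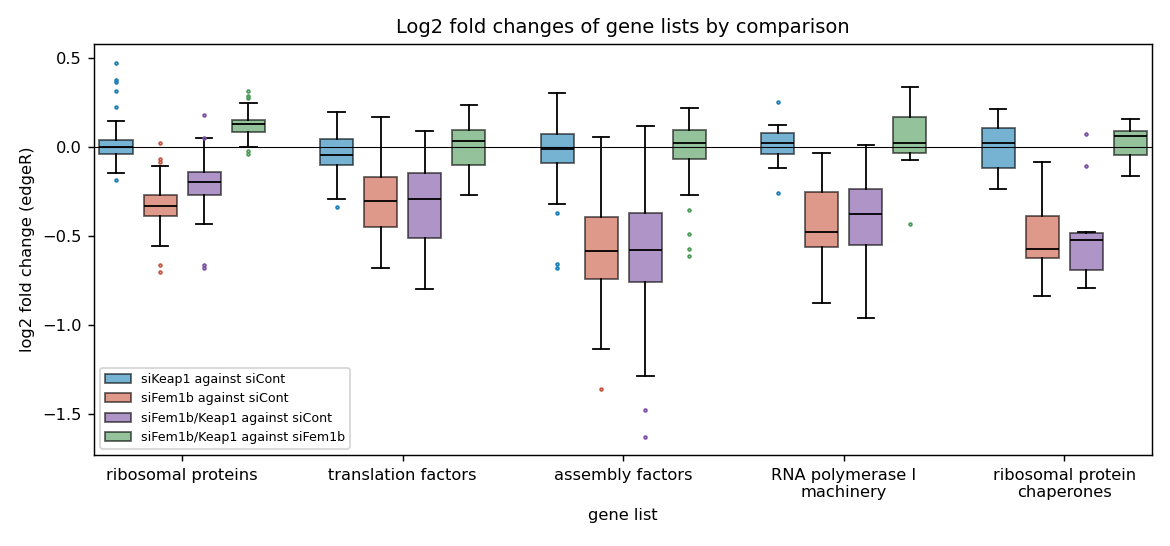
Log2 fold changes of the 80 ribosomal protein genes and 4 gene lists (49, 82, 20 and 10 genes) in 4 comparisons (colours; box, quartiles; line, median; whiskers, 1.5 interquartile ranges). With siFem1b the medians are -0.33, -0.30, -0.59, -0.48 and -0.58 from left to right, and against siFem1b alone the boxes of the lists straddle 0 while that of the ribosomal proteins lies above it.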

How the data were processed

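Per the labels, poly(A)-selected RNA of 12 libraries was sequenced in 2 runs each. Per the submitters' processing notes, the authors assigned reads to transcripts with kallisto 0.44.0 on build mm10. The 24 deposited tables give estimated counts (expected counts, where a read matching more than 1 transcript is divided between them by an estimate) and deposited TPM for 118489 transcripts, of which 116728 (98.5%) matched GENCODE M21. The rest, 0.608% to 0.637% of counts, were left out. How reads were trimmed is not given in the sources used here.

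Estimated counts were summed per gene and over both runs and rounded. TPM was summed per gene to order levels, and chose the coding transcript used for sequences. edgeR 4.0.16 (R 4.3.3) kept 14577 genes with filterByExpr, scaled libraries with TMM (factors 0.952 to 1.04) and fitted all 12 libraries with 1 term per group by robust quasi-likelihood. Tests were 2-sided, with Benjamini-Hochberg adjustment over all genes in each of 6 comparisons and a threshold of 0.05. CPM are scaled by TMM. The test was tested on simulated data. Near-identical genes were found with blastn 2.17.0, and protein identities were computed from translated GENCODE coding sequences.

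The members and lists were chosen with earlier results of these data known. Genes named were paralog pairs, the 4 largest rises and falls past the threshold in the comparisons with siCont and in the interaction, Rpl5, Rpl11, the stalk, Rps6 and Rps27a, the 3 highest and 3 lowest levels, and up to 4 genes per list; others were chosen after their values were seen. A gene outside the symbol rule is not reported here. Alternatives were other scalings, tests (DESeq2 1.42.0, limma-voom 3.58.1), filters, runs, transcripts and thresholds, a replicate block, a length offset and each library left out. Adding near-identical genes was chosen after the data were seen.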

Additional observations from a re-analysis of the deposited data

Results flagged for a closer look

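The effect of the Keap1 siRNA differed with and without the Fem1b siRNA, by the interaction term of the edgeR fit, for 3 of the 80 ribosomal protein genes: Rplp0 (0.25 on the log2 scale), Rpl10a (0.23) and Rpl24 (0.21). Over all genes tested, 6.11% passed in this direction and 5.32% in the other. No member passed without siFem1b/Keap1 replicate 1. The effect of the Keap1 siRNA differed in the same direction for Rack1 (0.21), a scaffold on the small subunit, and for Eef1a1 (0.17), the elongation factor that brings tRNAs to the ribosome. It differed in the opposite direction for Eif4ebp1 (-0.56), whose product holds back cap-dependent translation and which had 121, 129 and 115 CPM with siCont, 124, 118 and 137 with siKeap1, 82.7, 66.4 and 73.9 with siFem1b, and 51.8, 47.8 and 58.7 with both siRNAs.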

How the results depend on the processing

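Under 27 alternatives (26 for the interaction, which has no fit of compared groups only), the number of members lower with siFem1b than with siCont stayed between 57 and 76, and none was higher. With library totals alone, 20 were lower and 3 higher with siFem1b/Keap1 against siCont, and 23 lower and 2 higher against siKeap1. Without a filter on low counts, 9 were higher and 3 lower with siKeap1, 1 was higher with both siRNAs against siCont and 1 against siKeap1, 49 were higher against siFem1b, and the interaction had 14 and 2. At an adjusted p under 0.01, none was called with siKeap1 or in the interaction, and 10 were higher against siFem1b. A count of 1 higher came from DESeq2, from at least 5 CPM in 3 libraries and from compared groups only (both siRNAs against siCont), and from compared groups only (against siKeap1). Protein-coding transcripts alone gave 1 lower with siKeap1 and 5 in the interaction, the second run alone gave 1 in the interaction, and near-identical genes gave 1 higher with siKeap1, where Rpl5 turned to -0.0135 on the log2 scale. Such genes raised the shares of counts to 5.14%, 5.20%, 4.33% and 4.78% (siCont, siKeap1, siFem1b, siFem1b/Keap1), and named pseudogenes to 4.78%, 4.85%, 4.03% and 4.45%. The causes were not tested, apart from the added reads themselves.

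Leaving out 1 library gave 0 to 7 higher and 0 to 1 lower with siKeap1, 0 to 1 higher and 38 to 56 lower with both siRNAs against siCont, 38 to 60 lower against siKeap1, 10 to 42 higher against siFem1b, and 0 to 14 in the interaction. A replicate block gave 2 higher with siKeap1, 66, 47 and 49 lower in the comparisons that add the Fem1b siRNA, 23 higher against siFem1b and 3 in the interaction, Rplp0 and Rpl10a among them. Deviations of libraries from their group means (log2 scale, all tested genes) were correlated between groups. Same-numbered libraries gave correlations between -0.26 and 0.26, with 6 of 18 pairs over 0.1. Differently numbered libraries gave -0.38 to 0.35, with 9 of 36 pairs over 0.1. The numbers were therefore not taken to pair the samples. No change in Rpl3l, Rpl10l and Rpl39l was detectable at 0 to 5 counts per library, and shared reads limit the 18 members with over 10% of combined counts on near-identical genes.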
